A study of Mus musculus with 7 samples.

Results

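The 10 genes described here, Calb1, Pcp2, Pcp4, Ppp1r17, Gng13, Slc1a6, Lhx1, Lhx5, Skor2 and Foxp2, are genes by which cerebellar Purkinje cells are recognised. They were taken by symbol from the 55450 genes of the expression tables, and all 10 were measured in every library. Purkinje cells are the sole output neurons of the cerebellar cortex. They are inhibitory, their dendrites are contacted by granule neuron axons and by climbing fibres, and their axons end mainly on the neurons of the cerebellar nuclei. Much of their identity lies in proteins that shape calcium and G protein signals in the dendrite, and in a small set of transcription factors that are switched on in the young Purkinje cell.

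Polyadenylated RNA was sequenced from whole cerebella of C57BL/6 pups at postnatal day 15 (P15). The samples were 4 L3mbtl3 KO/+ cerebella, which carry 1 knockout allele of L3mbtl3 beside 1 wild-type allele, and 3 wild-type (WT) cerebella. The L3mbtl3 protein reads chromatin through MBT domains and is known as a partner of RBPJ, the transcription factor of the Notch pathway. The labels give no driver, clone, litter or pooling, and do not say which part of L3mbtl3 was deleted. The p-values thus set the difference between genotypes against the spread of these 7 libraries within genotypes.

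The libraries held 29248360 to 39660499 assigned reads in KO/+ and 36269844 to 43761792 in WT. L3mbtl3 itself was measured at 19.7, 17.4, 22.3 and 23.0 CPM (counts scaled to library size) in KO/+ replicates 1 to 4, against 22.6, 26.8 and 23.2 CPM in WT replicates 1 to 3. Its groups overlapped, and its log2 fold change, KO/+ over WT, was -0.23 ± 0.12 (SE). Granule progenitor and cell cycle genes set 3 libraries apart across both genotypes: the 12 cell cycle genes summed to 241, 230.2, 447 and 503 TPM (scaled to transcript length and to the library) in KO/+ replicates 1 to 4, against 517, 537 and 229.8 TPM in WT replicates 1 to 3. KO/+ replicates 1 and 2 and WT replicate 3 were the low ones, as they were for the 6 granule progenitor genes (104 to 236 TPM in KO/+ and 115 to 272 TPM in WT). Choroid plexus genes were also uneven, with summed levels of 60.1 to 2336 TPM in KO/+ and 47.7 to 1843 TPM in WT libraries. The 5 red blood cell genes summed to 2727 to 6969 TPM in KO/+ libraries, against 2781 to 3054 TPM in WT libraries. The 6 oligodendrocyte genes summed to 7896, 11052, 10394 and 5828 TPM in KO/+ replicates 1 to 4, against 7973, 7374 and 13060 TPM in WT replicates 1 to 3, so that KO/+ replicates 2 and 3 and WT replicate 3 were high. The 8 GABAergic interneuron and Golgi cell genes summed to 225 to 277 TPM in KO/+ and 225 to 378 TPM in WT, with the highest sum in WT replicate 3. Other summed levels were those of mature granule neurons (1649 to 2198.5 TPM in KO/+, 1582 to 1756.5 TPM in WT), unipolar brush cells (669.7 to 1009 TPM in KO/+, 631 to 811 TPM in WT), Bergmann glia and astrocytes (1493 to 1638 TPM in KO/+, 1405 to 1602 TPM in WT), vascular cells (163 to 260.5 TPM in KO/+, 171 to 194 TPM in WT) and microglia (30.7 to 52.3 TPM in KO/+, 33.0 to 62.2 TPM in WT). The part of these lists in the values below was not tested, except for the cell cycle genes where stated.

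No difference between KO/+ and WT beyond the spread of the libraries was found for the 10 Purkinje genes. None of them passed the test of KO/+ against WT, in which 0 of 16813 genes tested were called (0% of them; edgeR quasi-likelihood test, Benjamini-Hochberg adjusted p under 0.05). The count was 0 in DESeq2 too, where 597 genes had an unadjusted p under 0.05. The members' adjusted p-values lay between 0.957 and 0.994. None reached an unadjusted p under 0.05, against 3.15% of all genes tested, which is 530 genes. None had groups that did not overlap in CPM, against 3.96% of all genes. Of the 10 members, 5 had a positive log2 fold change, against 48.8% of all genes, and their median was 0.05. In whole tissue, fewer Purkinje cells and less RNA per Purkinje cell cannot be told apart.

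**Figure D1:**
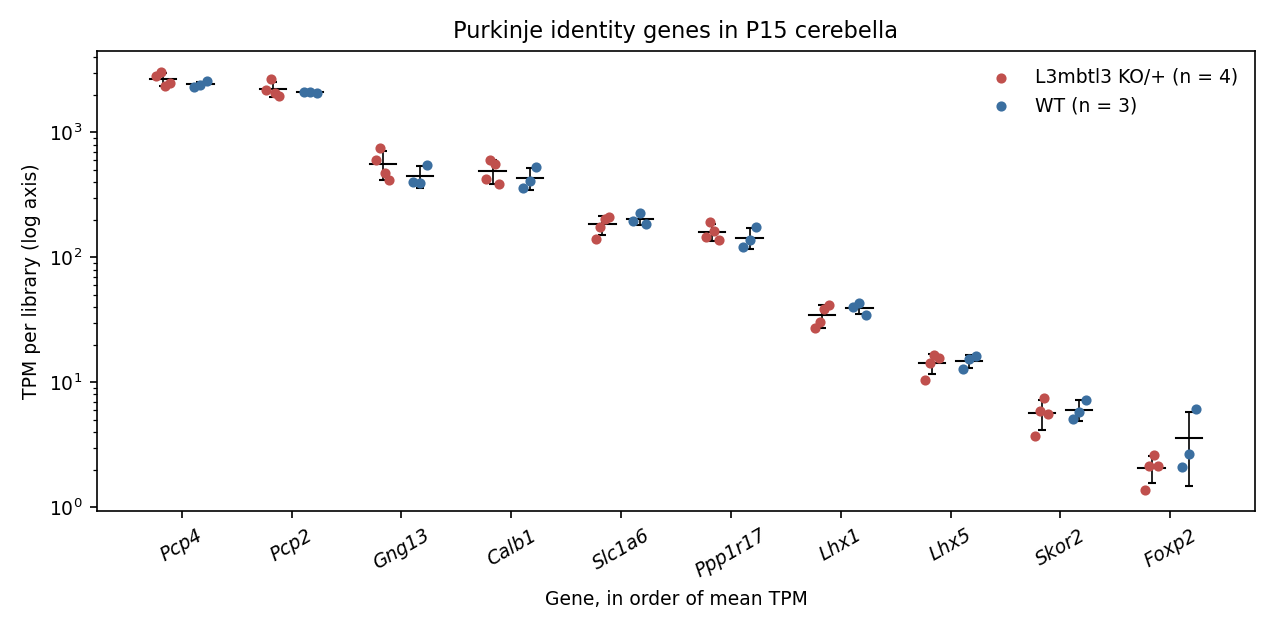
TPM of each of the 10 genes in each library (points, log axis), KO/+ left and WT right, with the mean (line) and SD (bar). KO/+ and WT points overlap for all 10 genes, and the mean levels run from 2572 TPM for Pcp4 to 2.74 TPM for Foxp2.

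Levels in TPM, which are scaled to transcript length, fell largely into pairs. Pcp4 and Pcp2 came first, at ranks 32 and 42 of 55450 genes by mean TPM, and Pcp4 was above Pcp2 in 7 of 7 libraries although their ranges overlapped. Gng13 and Calb1 followed, then Slc1a6 and Ppp1r17, and each of these pairs overlapped, with the first-named gene higher in 5 of 7 libraries. The 4 transcription factor genes were the lowest, in the order Lhx1, Lhx5, Skor2 and Foxp2, with Foxp2 at rank 12825. Between the pairs, and from Lhx1 down to Skor2, neighbouring ranges did not overlap, and Skor2 was above Foxp2 in 7 of 7 libraries with overlapping ranges.

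The genes of calcium and G protein signalling are described first, with positions on GRCm38. Calb1 (ENSMUSG00000028222, chr4:15881264-15908064, plus strand) encodes calbindin, a calcium buffer of the Purkinje cell cytoplasm. Its level was 421, 606, 562 and 388 TPM in KO/+ replicates 1 to 4, against 359.9, 405 and 527 TPM in WT replicates 1 to 3. The means were 494 ± 106 TPM in KO/+ (SD, n = 4) and 430.5 ± 86.2 TPM in WT (SD, n = 3). KO/+ replicate 2 was the highest and WT replicate 1 the lowest, with a log2 fold change of 0.25 (SE 0.17; 95% interval from -0.14 to 0.63). It was 0.12 without KO/+ replicate 2 and 0.38 without WT replicate 3.

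Pcp2, also called L7 (ENSMUSG00000004630, chr8:3623371-3625545, minus strand), encodes a modulator of inhibitory G protein alpha subunits that is made almost solely in Purkinje cells and retinal bipolar cells. Its level was 2204, 2659, 2079.8 and 1949 TPM in KO/+ replicates 1 to 4, against 2108, 2089 and 2085 TPM in WT replicates 1 to 3. The 3 WT libraries lay close together (SD 12.2 TPM, against 309 TPM in KO/+) and inside the KO/+ range. KO/+ over WT gave a log2 fold change of 0.10 (SE 0.14; 95% interval from -0.21 to 0.42). Without KO/+ replicate 2 it was -0.006.

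Pcp4, or PEP-19 (ENSMUSG00000090223, chr16:96467606-96525793, plus strand), encodes a small protein that binds calmodulin and speeds its exchange of calcium. Its level was 2820.1, 3063, 2372 and 2466 TPM in KO/+ replicates 1 to 4, against 2327, 2391 and 2566 TPM in WT replicates 1 to 3. KO/+ replicates 1 and 2 were above every WT library, and KO/+ replicates 3 and 4 lay among them. This gave a log2 fold change of 0.18 (SE 0.14; 95% interval from -0.14 to 0.51), which was 0.10 without KO/+ replicate 2. Of the 50-base stretches of Pcp4 transcripts, 17.5% also occur in transcripts annotated to Igsf5, which was listed at 0.75 to 1.12 TPM in KO/+ and 0.61 to 1.22 TPM in WT, so reads could have been split between the genes. The other members shared 0% to 0.652% of such stretches with other genes.

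Ppp1r17 (ENSMUSG00000002930, chr6:56017497-56032689, plus strand) encodes G-substrate, a phosphatase inhibitor that is active once phosphorylated by cGMP-dependent protein kinase. Its level was 146, 194, 162 and 139 TPM in KO/+ replicates 1 to 4, against 121, 137 and 174 TPM in WT replicates 1 to 3. The highest library was KO/+ replicate 2 and the next was WT replicate 3, so that the groups overlapped over most of their range. Its log2 fold change of 0.21 had an SE of 0.17 and a 95% interval from -0.18 to 0.60, and it was 0.08 without KO/+ replicate 2 and 0.38 without WT replicate 3.

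Gng13 (ENSMUSG00000025739, chr17:25717171-25719406, plus strand) encodes a G protein gamma subunit. Its level was 601, 753, 475 and 417 TPM in KO/+ replicates 1 to 4, against 401, 394 and 551 TPM in WT replicates 1 to 3. KO/+ replicates 1 and 2 and WT replicate 3 were the 3 highest libraries. At 0.33 (SE 0.25; 95% interval from -0.24 to 0.90), its log2 fold change was the largest positive value of the 10 genes, and it was 0.17 without KO/+ replicate 2 and 0.54 without WT replicate 3.

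Slc1a6 (ENSMUSG00000005357, chr10:78780496-78814765, plus strand) encodes EAAT4, the glutamate transporter of Purkinje cell dendrites and spines. Its level was 141, 176, 205 and 212 TPM in KO/+ replicates 1 to 4, against 196, 225 and 185 TPM in WT replicates 1 to 3. KO/+ replicates 1 and 2 were below every WT library, and KO/+ replicates 3 and 4 lay among them. Slc1a6 had a log2 fold change of -0.09 (SE 0.11; 95% interval from -0.35 to 0.17), with the narrowest interval of the 10, and of -0.15 without KO/+ replicate 4 and -0.01 without KO/+ replicate 1.

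For the members with an entry in the RefSeq promoter table (5 of 10, build GRCm38.p6), the bases just upstream of the annotated start were read for the 3 signalling genes that had one and, beside them, for Slc1a6, whose level was lowest in KO/+ replicate 1. The windows of Pcp4, Gng13 and Slc1a6 are 250 bases long, and that of Pcp2 is 137 bases, since an exon of the neighbouring gene Pet100 lies beyond it; that of Gng13 lies just before the start of Gng13-201 and inside the first intron of Gng13-202. Capitals mark matches to 3 short motifs, searched on both strands: AGGTCA, the core bound by the retinoid-related receptor RORA and other nuclear receptors, TAATTA, a homeodomain core that reads the same on both strands, and TATAAA, the TATA box.
Pcp2, chr8:3625283-3625419, minus strand: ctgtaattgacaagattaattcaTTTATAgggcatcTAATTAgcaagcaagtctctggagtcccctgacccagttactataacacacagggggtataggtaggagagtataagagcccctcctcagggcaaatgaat
Pcp4, chr16:96467356-96467605, plus strand: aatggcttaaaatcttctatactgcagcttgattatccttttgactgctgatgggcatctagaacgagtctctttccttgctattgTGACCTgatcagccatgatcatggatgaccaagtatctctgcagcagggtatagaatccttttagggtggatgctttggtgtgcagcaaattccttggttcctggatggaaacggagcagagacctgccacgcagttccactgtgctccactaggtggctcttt
Gng13, chr17:25717278-25717527, plus strand: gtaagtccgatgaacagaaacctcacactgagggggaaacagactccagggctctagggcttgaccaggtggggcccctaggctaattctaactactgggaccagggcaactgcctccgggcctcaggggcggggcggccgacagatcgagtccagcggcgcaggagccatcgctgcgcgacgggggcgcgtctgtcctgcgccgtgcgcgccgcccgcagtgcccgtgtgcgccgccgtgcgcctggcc
Slc1a6, chr10:78780246-78780495, plus strand: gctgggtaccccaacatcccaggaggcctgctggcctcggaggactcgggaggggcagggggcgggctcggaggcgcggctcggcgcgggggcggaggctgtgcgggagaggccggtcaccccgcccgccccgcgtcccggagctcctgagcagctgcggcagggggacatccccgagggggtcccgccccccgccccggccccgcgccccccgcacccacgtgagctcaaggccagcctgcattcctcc
The Pcp2 window held 1 TAATTA and 1 TATAAA, the TATAAA as TTTATA on the strand shown, and they did not overlap. Of all promoters cut to the same 137 bases, 2.47% held TAATTA and 7.09% held TATAAA. The Pcp4 window held 1 AGGTCA, as TGACCT, which 14.0% of all 32851 promoter windows of 250 bases held. No match was found in the windows of Gng13 and Slc1a6, whose GC contents were 69.2% and 78.8%, against 43.1% for Pcp2 and 46.8% for Pcp4. These matches describe the letters only, and no binding was measured here.

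In TPM, the 4 transcription factor genes were below the other 6 members in every library. Without scaling to length this did not hold. Lhx1 and Gng13 were at 80.7 and 47.3 CPM in WT replicate 1, against 58.2 and 82.7 CPM in KO/+ replicate 1. Lhx1 (ENSMUSG00000018698, chr11:84518284-84525535, minus strand) and Lhx5 (ENSMUSG00000029595, chr5:120431699-120441223, plus strand) encode LIM homeodomain proteins that act together in Purkinje cell differentiation in mice. Lhx1 was at 27.1, 30.2, 38.8 and 41.9 TPM in KO/+ replicates 1 to 4, against 40.3, 43.0 and 34.8 TPM in WT replicates 1 to 3. KO/+ replicates 1 and 2 were the lowest libraries, followed by WT replicate 3, with a log2 fold change of -0.15 (SE 0.14; 95% interval from -0.46 to 0.17), which was -0.25 without WT replicate 3 and -0.08 without KO/+ replicate 1. Lhx5 was at 10.5, 14.2, 16.55 and 15.55 TPM in KO/+ replicates 1 to 4, against 12.8, 15.3 and 16.2 TPM in WT replicates 1 to 3. Lhx5 had a log2 fold change of -0.01 (SE 0.14; 95% interval from -0.32 to 0.30), with values of -0.10 to 0.09 when 1 library was left out.

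Skor2 (ENSMUSG00000091519, chr18:76856405-76900342, plus strand) encodes a transcriptional corepressor of the SKI family that is needed for Purkinje cell differentiation in mice. Its level was 3.72, 5.92, 7.50 and 5.60 TPM in KO/+ replicates 1 to 4, against 5.06, 5.82 and 7.27 TPM in WT replicates 1 to 3. KO/+ replicate 1 was the lowest and KO/+ replicate 3 the highest, so the KO/+ libraries enclosed all WT libraries. A log2 fold change of -0.05 (SE 0.21; 95% interval from -0.54 to 0.44) was found, and its sign turned without KO/+ replicate 1 or without WT replicate 3.

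Foxp2 (ENSMUSG00000029563, chr6:14901349-15441977, plus strand) encodes a forkhead transcription factor that is also made in neurons of the cerebellar nuclei. Its level was 1.37, 2.14, 2.63 and 2.15 TPM in KO/+ replicates 1 to 4, against 2.09, 2.69 and 6.08 TPM in WT replicates 1 to 3. Foxp2 had the log2 fold change of largest size among the 10 genes, -0.73 (SE 0.33; 95% interval from -1.50 to 0.04), with an unadjusted p of 0.0586 in edgeR's quasi-likelihood test. WT replicate 3 was above the other 6 libraries, among which the genotypes overlapped, and without it the log2 fold change was -0.16. The 4 cerebellar nuclei genes (Tbr1, Meis2, Slc17a6 and Spp1) were detected in all libraries and summed to 40.3 to 63.8 TPM in KO/+ and 48.7 to 117 TPM in WT, with the highest sum in WT replicate 3. Among them Meis2 was at 0.46, 2.61, 2.44 and 0.91 TPM in KO/+ replicates 1 to 4, against 1.93, 1.33 and 16.9 TPM in WT replicates 1 to 3. Tph2, the serotonin-synthesis enzyme of the brainstem raphe, was at 0.62 to 0.80 TPM in the KO/+ libraries, against 0.66, 0.70 and 4.10 TPM in WT replicates 1 to 3. Tph2 is 1 of a list of 8 brainstem, forebrain and midbrain genes, of which only 3 were detected in all 7 libraries. The list summed to 15.3 to 20.9 TPM in KO/+ libraries, against 18.6, 20.6 and 22.1 TPM in WT replicates 1 to 3. Its sum in WT replicate 3 was thus close to that in WT replicate 2, unlike Tph2 alone. Meis2 and Tph2 were picked out after their values were seen, and their part in the Foxp2 result was not tested.

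**Figure D2:**
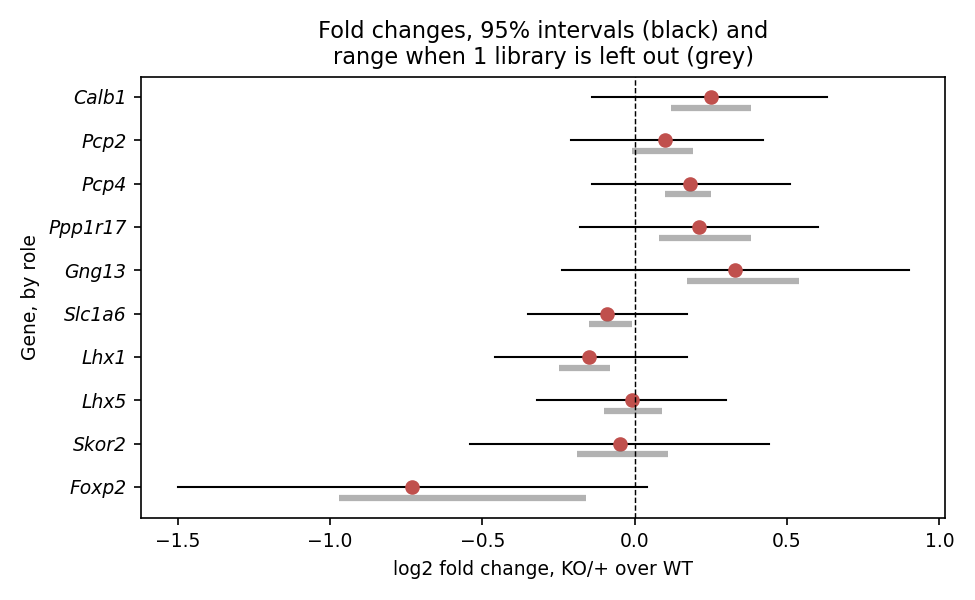
log2 fold change, KO/+ over WT, of each gene (red point) with its 95% interval (black) and the range of values when 1 library is left out (grey), ordered by role. All 10 intervals include 0, and the Foxp2 range reaches from -0.97 to -0.16.

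Grouped by role, a grouping made after the values were seen, the 5 signalling genes (Calb1, Pcp2, Pcp4, Ppp1r17 and Gng13) had positive fold changes of 0.10 to 0.33, and Slc1a6 and the 4 transcription factor genes had negative ones of -0.73 to -0.01. None passed the test, and groups overlapped for each gene. KO/+ replicate 2 was the highest of the 7 libraries for all 5 signalling genes, and KO/+ replicate 1 was the lowest for Slc1a6 and all 4 transcription factor genes. Set against each gene's mean over the 7 libraries, the signalling genes averaged 0.16, 0.42, 0.01 and -0.25 log2 units in KO/+ replicates 1 to 4, against -0.27, -0.19 and 0.11 in WT replicates 1 to 3. The transcription factor genes averaged -0.46, -0.02, 0.13 and -0.01 in KO/+ replicates 1 to 4, against -0.08, 0.05 and 0.39 in WT replicates 1 to 3. KO/+ replicate 1 was thus above the mean for the first group and below it for the second. Transcript length moved with the same library: over genes averaging 10 CPM or more, the median deviation in KO/+ replicate 1 was 0.11 for the 796 genes with a main transcript of up to 1000 bases and -0.05 for the 5471 genes over 3000 bases. The main transcripts of Gng13, Pcp2 and Pcp4 are 347, 495 and 641 bases long, those of Ppp1r17, Slc1a6 and Lhx5 are 1757, 2029 and 2689 bases long, and those of Skor2, Lhx1, Calb1 and Foxp2 are 3141, 3846, 4222 and 6760 bases long. Calb1, long but of the signalling group, deviated by 0.01 in KO/+ replicate 1. In KO/+ replicate 2 and WT replicate 3, the genes of up to 1000 bases had median deviations of 0.05 and -0.07. The short members Gng13, Pcp2 and Pcp4 deviated by 0.58, 0.35 and 0.32 in KO/+ replicate 2. In WT replicate 3 these 3 deviated by 0.20, 0.02 and 0.03. The part of length in the deviations of the members was not tested.

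**Figure D3:**
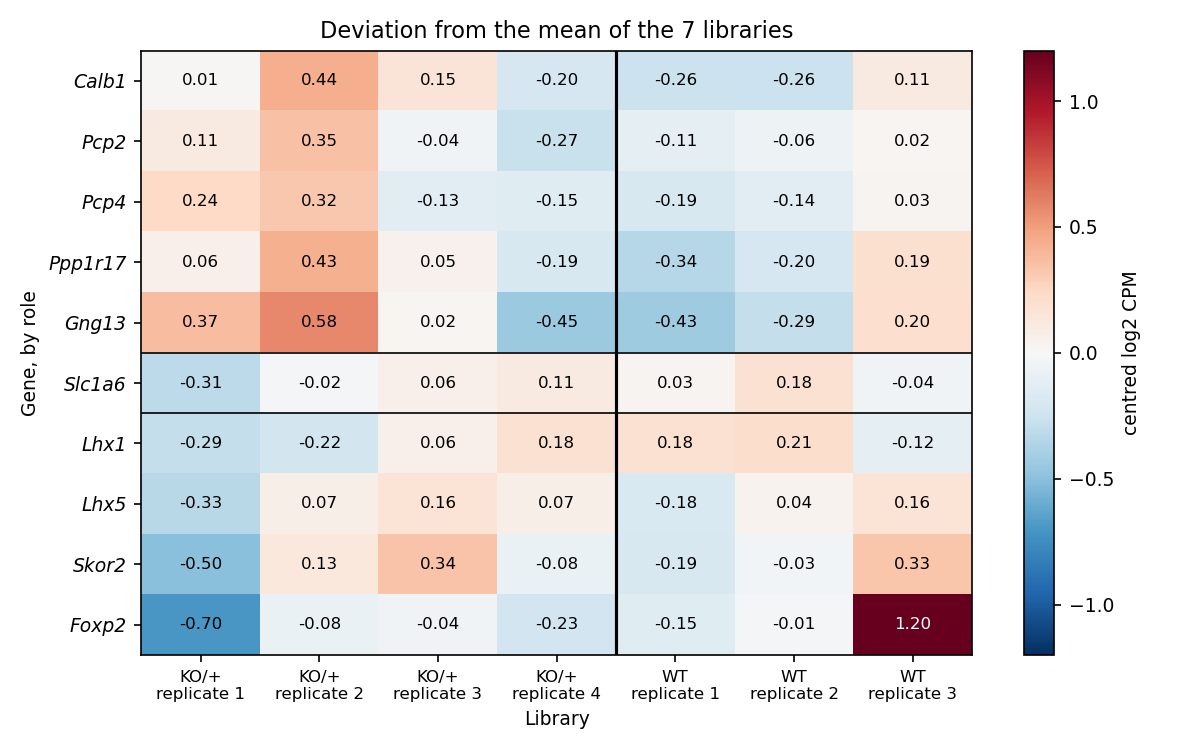
log2 CPM of each gene (rows, by role) in each library (columns, KO/+ left of WT) as the deviation from that gene's mean over the 7 libraries. KO/+ replicate 2 is high for the 5 signalling genes, KO/+ replicate 1 is low for Slc1a6 and the 4 transcription factor genes, and Foxp2 in WT replicate 3 stands at 1.20.

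The summed level of the 10 genes was 6376, 7504, 5921 and 5636 TPM in KO/+ replicates 1 to 4, against 5573, 5707 and 6152 TPM in WT replicates 1 to 3. The means were 6359 ± 822 TPM in KO/+ (SD, n = 4) and 5811 ± 303 TPM in WT (SD, n = 3), a ratio of 1.09. On the log2 scale the difference was 0.13, less than the pooled SD of 0.15. The 5 signalling genes made up 94.9% to 97.1% of the sum in every library. Per 1000 TPM of the sum, the transcription factor genes held 6.69, 6.99, 11.1 and 11.6 TPM in KO/+ replicates 1 to 4, against 10.8, 11.7 and 10.5 TPM in WT replicates 1 to 3.

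Gng13 and Lhx1, picked out after their values were seen, sat at opposite ends in the same libraries. Gng13 was highest and Lhx1 lowest in KO/+ replicates 1 and 2 and WT replicate 3, the 3 libraries in which the cell cycle genes were low. In TPM and in CPM, Pcp4 was also highest and Slc1a6 lowest in these 3 libraries. Pcp2 and Ppp1r17 were highest in them in CPM but not in TPM. Pcp2 was at 245.9, 289.8 and 230.9 CPM in KO/+ replicates 1 and 2 and WT replicate 3, against 189.3 to 221.5 CPM elsewhere. Ppp1r17 was at 148.3, 191.9 and 162.6 CPM there, against 112.2 to 147.7 CPM elsewhere. Calb1, Lhx5, Skor2 and Foxp2 did not divide the libraries in this way on either scale. In a fit that took the cell cycle score of each library as a covariate, Gng13 had a log2 fold change of 0.19 and Lhx1 of -0.09, and neither passed the test (edgeR, adjusted p of 0.719 and 0.737). The same covariate left Calb1 at 0.18, Pcp2 at 0.04 and Foxp2 at -0.71. The part of the cell cycle genes in these values was not tested beyond that.

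**Figure D4:**
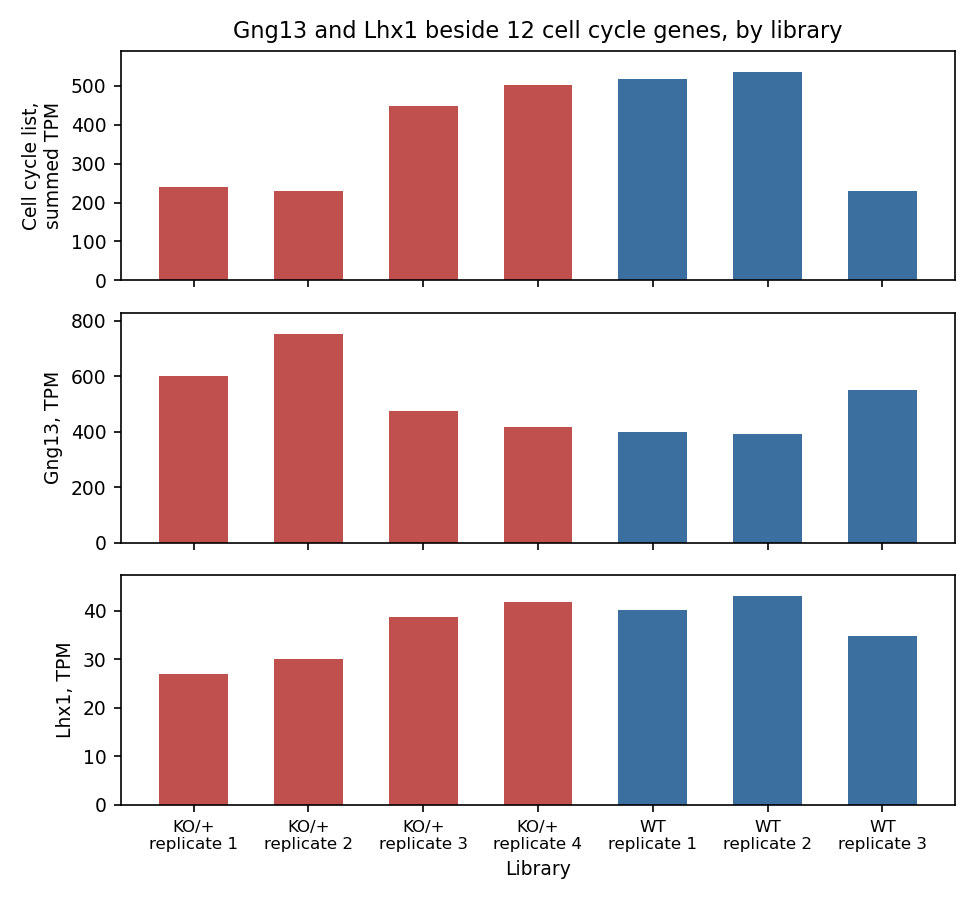
Summed TPM of the 12 cell cycle genes (top), TPM of Gng13 (middle) and TPM of Lhx1 (bottom) in each library, KO/+ in red left of WT in blue. In the 3 libraries with a cell cycle sum of 229.8 to 241 TPM, Gng13 is at 551 to 753 TPM and Lhx1 at 27.1 to 34.8 TPM.

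Each member's biological coefficient of variation, edgeR's estimate of the relative spread beyond counting error, was 12.4% to 31.7%, and all 10 were above the median of 11.9% for the 10519 genes averaging 10 CPM or more. Slc1a6 had the lowest value and Foxp2 the highest. The 24 other Purkinje genes described below were likewise all above that median, at 12.9% to 48.9%. Of them Cntnap5a, which had the highest value, Ebf2 and Shh averaged under 10 CPM, so for these 3 the median is not that of genes of like level.

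At the transcript level, 34 of the 45 annotated transcripts of the 10 genes had reads and 24 were tested. None was called, as for all 44375 transcripts tested (0% called, edgeR adjusted p under 0.05), and none of the 24 had an unadjusted p under 0.05, against 2.71% of all transcripts, which is 1201. Ppp1r17, Lhx5 and Skor2 have a single annotated transcript each, and Pcp4-201 and Slc1a6-201 held 99.8% and 96.4% of their gene's transcripts in KO/+ (mean, n = 4), against 99.7% and 96.3% in WT (mean, n = 3).

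Pcp2 was split over 3 protein-coding transcripts that start at 3625282, 3625049 and 3625002 on the minus strand of chromosome 8 (GRCm38). The first of them, Pcp2-201, starts at the base after the window printed above. Pet100 exons overlap the first exons of Pcp2 transcripts such as Pcp2-202 and Pcp2-204, which held 0.2% to 1.8% of Pcp2 transcripts in KO/+ and 0.3% to 1.6% in WT libraries, but not those of the 3 main transcripts. Pcp2-201 made up 46.0%, 45.3%, 43.6% and 37.3% of Pcp2 transcripts in KO/+ replicates 1 to 4, against 34.4%, 36.6% and 46.9% in WT replicates 1 to 3. Pcp2-203 made up 27.9%, 29.2%, 30.5% and 34.5% in KO/+ replicates 1 to 4, against 34.5%, 34.7% and 26.9% in WT replicates 1 to 3. The share of Pcp2-201 was high in KO/+ replicates 1, 2 and 3 and WT replicate 3, and the share of Pcp2-203 was low in these libraries. The fold changes of the transcripts did not pass the test, with log2 values of 0.26 (SE 0.24) for Pcp2-201 (0.11 without KO/+ replicate 2, 0.47 without WT replicate 3), 0.04 (SE 0.12) for Pcp2-203 and -0.01 (SE 0.13) for Pcp2-205.

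Calb1 reads were divided between the 4222-base coding transcript Calb1-201 and Calb1-202, a 701-base transcript annotated as a retained intron. Calb1-201 held 63.5% ± 3.96 of Calb1 transcripts in KO/+ (SD, n = 4) and 63.7% ± 4.58 in WT (SD, n = 3), and Calb1-202 held 36.4% ± 3.91 in KO/+ and 36.1% ± 4.54 in WT. Gng13-201 and Gng13-202 held 54.9% ± 3.85 and 45.1% ± 3.85 of Gng13 transcripts in KO/+, against 53.6% ± 3.26 and 46.4% ± 3.26 in WT. Of Foxp2 transcripts, the 6760-base Foxp2-207 held 68.3% ± 13.0 in KO/+ and 65.9% ± 14.2 in WT. Its log2 fold change was -0.65 (SE 0.29, unadjusted p of 0.0549 in edgeR's quasi-likelihood test), and -0.20 without WT replicate 3. That of Foxp2-201 was -0.90 (SE 0.76), and 0.10 without WT replicate 3.

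**Figure D5:**
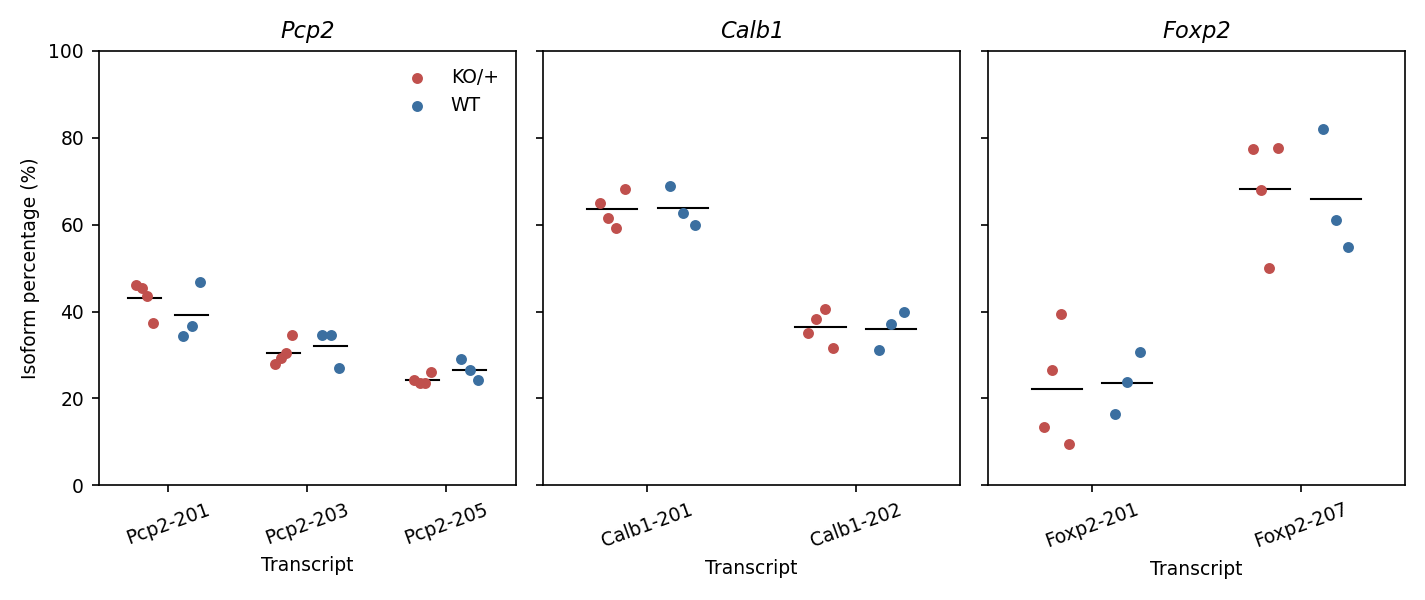
Isoform percentage, the share of a gene's transcripts held by each transcript, for Pcp2, Calb1 and Foxp2 in each library (points) with the group mean (line), KO/+ left and WT right. For Pcp2-201 the KO/+ libraries lie between 37.3% and 46.0% and the WT libraries between 34.4% and 46.9%, and the groups overlap for all 7 transcripts shown.

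Another 24 genes known from Purkinje cells, among them calcium channels, synaptic scaffold and glutamate receptor genes, were set beside the 10. Of these, 10 had a positive and 14 a negative log2 fold change, with a median of -0.04, and none was called or had an unadjusted p under 0.05. Rora and Shh are given for their known roles, outside the rule for named genes, and were chosen after their values were seen. Rora, the receptor needed for Purkinje cell maturation, averaged 50.1 ± 7.40 TPM in KO/+ and 48.1 ± 7.50 TPM in WT. Shh, the signal by which Purkinje cells drive granule progenitor division, averaged 2.67 ± 0.598 TPM in KO/+ and 2.81 ± 0.965 TPM in WT. The 6 with the smallest p were Ebf2, Nefh, Cntnap5a, Pvalb, Necab2 and Homer3. Ebf2, which encodes a helix-loop-helix transcription factor, was at 1.87, 2.48, 3.08 and 2.60 TPM in KO/+ replicates 1 to 4, against 2.85, 3.56 and 4.72 TPM in WT replicates 1 to 3. Its log2 fold change was -0.46 (SE 0.21, unadjusted p of 0.0563 in edgeR's quasi-likelihood test), and -0.24 without WT replicate 3. Cntnap5a, a neurexin-family gene, followed Foxp2 in its high library, with 0.63 to 1.03 TPM in KO/+ libraries against 0.71, 0.84 and 3.60 TPM in WT replicates 1 to 3. Its log2 fold change of -0.94 (SE 0.54) was 0.22 without WT replicate 3. Pvalb, which encodes the calcium buffer parvalbumin, had a log2 fold change of 0.32 (SE 0.20), and 0.17 without KO/+ replicate 2. Homer3, a postsynaptic scaffold gene, had 0.20 (SE 0.17), with 0.09 without KO/+ replicate 2 and 0.37 without WT replicate 3. Nefh, the heavy neurofilament gene, had -0.51 (SE 0.29), and -0.14 without WT replicate 3. Necab2, a calcium-binding protein gene, had -0.24 (SE 0.19), with -0.43 without KO/+ replicate 4 and -0.13 without KO/+ replicate 1. Over the 24 genes WT replicate 3 was the highest library for 12 and KO/+ replicate 2 for 9, and KO/+ replicate 1 was the lowest for 12.

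The members' mean deviation was -0.13, 0.20, 0.06 and -0.12 log2 units in KO/+ replicates 1 to 4, against -0.16, -0.06 and 0.21 in WT replicates 1 to 3. Of the 10509 other genes averaging 10 CPM or more, those most like this profile over the 7 libraries were Pde5a, Clmn, Rap1gap2, Psd2, Atp2a3 and Ttll5, with Pearson r of 0.986 to 0.99. The members did not all follow their mean profile, of which each is a part: r was 0.44 to 0.84 for 8 of them, 0.02 for Slc1a6 and -0.45 for Lhx1. Pde5a, Clmn, Rap1gap2, Psd2, Atp2a3 and Ttll5 were chosen for their likeness to the profile. That likeness is therefore a description, and all values share the same 7 libraries. Pde5a encodes a cGMP phosphodiesterase and Atp2a3 a calcium pump of the endoplasmic reticulum. Clmn was at 12.9, 22.9, 21.6 and 15.2 TPM in KO/+ replicates 1 to 4, against 13.2, 16.0 and 24.8 TPM in WT replicates 1 to 3, so its high libraries were KO/+ replicates 2 and 3 and WT replicate 3.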

How the data were processed

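The submitters' processing notes name STAR 2.5.2a, RSEM 1.3.1, Trimmomatic 0.39, bcl2fastq and the builds GRCm38 and mm10. The strand setting is not stated there. Per the file headers, the deposited values are expected counts (RSEM's estimated reads of a gene or transcript, often fractional), TPM (scaled to length and library) and the isoform percentage (the percent of its gene that a transcript makes up). The 6 tables of the whole series were not used.

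Expected counts were rounded, filtered with filterByExpr, scaled with TMM and tested over all genes or transcripts with edgeR 4.0.16 (robust glmQLFit, glmQLFTest) with no covariate in R 4.3.3, with Benjamini-Hochberg adjustment and a threshold of 0.05. The median log2 fold change of all genes was -0.005. No libraries agreed within sampling noise. Positions came from GENCODE M21, which held all 55450 gene IDs. Alternatives included DESeq2 1.42.0 and limma 3.58.1. Scripts were tested on simulated data.

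Named genes were the 10 members, L3mbtl3, the 6 other Purkinje genes with the smallest p, the 6 genes of highest Pearson r with the members' mean log2 CPM (prior count 2), and member transcripts with a mean isoform percentage of at least 10. Igsf5, Meis2, Tph2, Rora and Shh were named outside this rule, after their values were seen. The members and the 15 lists were chosen with earlier results of these data known. The summed values of 1 of these lists are not reported here.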

Additional observations from a re-analysis of the deposited data

Results flagged for a closer look

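The isoform percentage of Lhx1-201, the longest Lhx1 transcript, was 77.3% in KO/+ replicate 2, against 81.2%, 81.0% and 81.1% in the other KO/+ libraries, a gap that exceeds the limit for 1 sample lying apart from the 3 others of its group (Dixon's ratio test). WT libraries held 83.1%, 80.6% and 75.9%, a range that includes this value. Of the 40 groups looked at, 1 stood out in this way, and chance gives about 1 in 20.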

How the results depend on the processing

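Leaving out each library in turn, 0 to 1 genes and 0 to 2 transcripts were called: Wdfy1 without WT replicate 2, Fam220a and its transcripts Fam220a-204 and Fam220a-208 without WT replicate 3, and Eif3j2 and Eif3j2-201 without KO/+ replicate 4. With no filter on low counts, 3 transcripts were called (Slc35c2-203, Senp2-205 and Adgrl3-217). These names were taken after their values were seen, and none is among the 10 members or the 24 other Purkinje genes listed here. The 39 fold changes followed, those of the 10 genes, the other named genes and 16 transcripts, passed the threshold in 0 settings. The labels give no pairing. Deviations of same-numbered libraries from their group means had r of 0.32, -0.18 and -0.17. Libraries of different numbers were not compared in this way, so these values cannot show whether the numbers pair the libraries. With the replicate number as a block, 1 gene (Eif3j2) was called, and the signs of Psd2 (0.03), Atp2a3 (0.05), Ttll5 (0.03) and transcript Pcp2-205 (0.06) turned. Pde5a was at -0.02 with limma on log2(TPM + 1) or log2(TPM + 0.1) and in the fit with a cell cycle covariate. The sign of the other named fold changes, the 10 members' among them, held in all settings that kept the 7 libraries. Leaving out 1 library turned the sign of 15, whose values ranged from -0.006 to 0.19 for Pcp2, -0.19 to 0.11 for Skor2, -0.10 to 0.09 for Lhx5, -1.32 to 0.22 for Cntnap5a, -0.11 to 0.24 for Pde5a, -0.12 to 0.35 for Clmn, -0.07 to 0.21 for Rap1gap2, -0.14 to 0.15 for Psd2, -0.27 to 0.32 for Atp2a3, -0.13 to 0.14 for Ttll5, -0.06 to 0.09 for Pcp2-203, -0.11 to 0.06 for Pcp2-205, -1.48 to 0.10 for Foxp2-201, -0.11 to 0.09 for Lhx5-201 and -0.19 to 0.14 for Skor2-201. The cause was not tested. The log2 ratio of the summed TPM was 0.04 to 0.18 with 1 library left out. With 4 and 3 libraries, the interval of Gng13 still allows a 1.86-fold higher and that of Foxp2 a 0.354-fold level in KO/+.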
